A study of Mus musculus with 51 samples.

Results

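The change of H3K4me1 from early to late astrocytes was followed by setting the list of H3K4me1 peaks of early astrocytes (eA) against that of late astrocytes (lA). An eA peak that overlapped no lA peak by 1 bp or more was called lost, an lA peak that overlapped no eA peak was called gained, and a peak with a partner in the other list was called kept. On chromosomes 1 to 19 the eA list held 181227 peaks and the lA list 203377, that is 384604 of the 784577 peaks in the 6 histone lists of the series. Of the eA peaks 42105 were lost and 139122 kept, and of the lA peaks 62784 were gained and 140593 kept.

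The cells were C57/BL-6 mouse cells in culture. Neural progenitors derived from embryonic stem cells (aNPC) were grown with EGF and FGF-2 and were then moved to DMEM with 1% serum and the cytokine LIF, for 1 day to give eA and for 5 days to give lA. Neither stage carried an altered allele, and LIF and serum were common to both. Chromatin of 2 samples per stage was precipitated with an antibody against H3K4me1, and the authors merged the 2 sets of aligned reads before they called peaks, so that 1 list stood for each stage. There was therefore no spread between cultures to set a difference against, and no test between stages was made. Shares are given with 95% Wilson intervals, which cover counting error over peaks only. The lists hold no read counts and the depth behind each is unknown. Cells of other types within a culture cannot be told apart from astrocytes in such lists.

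H3K4me1, the addition of a single methyl group to lysine 4 of histone H3, is laid down over nucleosomes at enhancers and at the flanks of promoters. It is present at enhancers that are poised as well as at those in use, whereas acetylation of lysine 27 of the same histone (H3K27ac) marks the active ones. During the formation of astrocytes, the glial cells that support neurons, LIF acts through the gp130 receptor and STAT3, and factors of the NFI and AP-1 families act at enhancers of glial genes.

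The stage labels were compared with the marks at promoters. Promoters reached from 1 kb before to 100 bp after the start of a coding transcript. Of 18 astrocyte markers, 13 had an H3K4me1 peak at a promoter in eA and 13 in lA, and 13 and 12 had an H3K27ac peak there. Over all 21410 genes, 54.6% had promoter H3K4me1 in eA and 53.7% in lA, and 53.8% and 48.7% had promoter H3K27ac. Of 14 neural progenitor genes, 11 had promoter H3K27ac in eA and 10 in lA, so this mark did not separate astrocyte markers from progenitor genes. Of 16 proneural and neuronal transcription factors, 7 had it in eA and 5 in lA. Of 14 neuronal markers, 4 had promoter H3K27ac in eA (Elavl4, Gad1, Gap43 and Tubb3) and 2 in lA (Gad1 and Tubb3). Promoter H3K27ac was found at 1 of 8 microglia markers at both stages (P2ry12) and at 2 of 9 endothelial and mural cell markers at both stages (Acta2 and Kdr). All 10 housekeeping genes had it at both stages. Gfap, the intermediate filament gene that defines astrocytes in culture, had 3 kept peaks in each list, none lost and 1 gained. Its gained peak (chr11:102762599-102762988, 390 bp) lay at −4280 bp relative to the start site and had an enrichment of 2.60-fold and a −log10 q of 10.6.

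The sequences of 5 lost peaks show the kind of site that had H3K4me1 at 1 day and no peak at 5 days. They are the strongest lost peak of all by −log10 q in the eA list, the strongest that held the letters CAGCTG (an E-box, the site of basic helix-loop-helix factors), and the strongest given to an astrocyte marker, a proneural or neuronal transcription factor and an oligodendrocyte lineage gene. Each is the 200 bp around the summit on the forward strand of mm9, in lower case, with every match to 1 of 11 motif letter strings on either strand in capitals.
Gm9881, intergenic, chr16:91191107-91191306: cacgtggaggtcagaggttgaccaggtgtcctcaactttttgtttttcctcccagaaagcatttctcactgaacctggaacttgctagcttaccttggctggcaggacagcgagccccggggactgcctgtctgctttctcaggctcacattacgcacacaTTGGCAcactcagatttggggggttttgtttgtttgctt
Adcy1, coding exon, chr11:6963966-6964165: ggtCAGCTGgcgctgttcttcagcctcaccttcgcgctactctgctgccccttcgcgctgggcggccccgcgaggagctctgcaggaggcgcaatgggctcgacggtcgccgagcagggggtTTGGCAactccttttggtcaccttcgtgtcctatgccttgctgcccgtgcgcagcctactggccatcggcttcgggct
Gjb6, intergenic, chr14:57773425-57773624: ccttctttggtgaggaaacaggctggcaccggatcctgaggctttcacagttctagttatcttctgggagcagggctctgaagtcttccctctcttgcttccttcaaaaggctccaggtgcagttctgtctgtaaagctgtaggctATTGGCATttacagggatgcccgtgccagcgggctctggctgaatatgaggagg
Neurod4, intergenic, chr10:129700452-129700651: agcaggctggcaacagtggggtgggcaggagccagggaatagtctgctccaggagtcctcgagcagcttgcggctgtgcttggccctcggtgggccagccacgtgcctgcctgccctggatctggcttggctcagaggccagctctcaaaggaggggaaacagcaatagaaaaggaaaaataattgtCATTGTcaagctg
Olig1, intergenic, chr16:91285102-91285301: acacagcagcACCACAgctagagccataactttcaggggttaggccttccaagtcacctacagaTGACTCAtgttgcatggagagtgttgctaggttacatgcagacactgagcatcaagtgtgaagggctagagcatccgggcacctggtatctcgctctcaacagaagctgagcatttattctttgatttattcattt
The capitals mark an NFI string (TTGGCA, one side of the full palindrome) at Gm9881, an E-box and an NFI string at Adcy1, an NFI string that overlaps a POU string (ATGCNAAT) at Gjb6, a SOX string (ACAATG) at Neurod4, and a RUNX (TGTGGT) and an AP-1 string (TGANTCA) at Olig1.

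The sequences of 4 gained peaks are set beside them. They are the strongest peak, by −log10 q in the lA list, given to the 10 genes that gained most peaks on balance, the strongest that held the letters GGAATG (bound by TEAD factors, which act with YAP in the Hippo pathway), and the strongest given to an astrocyte marker and to an extracellular matrix or adhesion gene.
Ube2e2, intron, chr14:19489963-19490162: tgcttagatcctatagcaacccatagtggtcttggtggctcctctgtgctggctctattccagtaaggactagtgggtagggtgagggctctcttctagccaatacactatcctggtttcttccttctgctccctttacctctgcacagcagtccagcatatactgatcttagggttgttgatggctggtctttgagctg
Fars2, intron, chr13:36326592-36326791: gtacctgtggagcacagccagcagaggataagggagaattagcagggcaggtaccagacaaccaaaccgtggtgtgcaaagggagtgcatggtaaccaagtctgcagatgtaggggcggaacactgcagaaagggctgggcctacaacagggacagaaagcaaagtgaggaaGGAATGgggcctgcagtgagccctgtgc
Slc1a2 by nearest start site, intron of Cd44, chr2:102668853-102669052: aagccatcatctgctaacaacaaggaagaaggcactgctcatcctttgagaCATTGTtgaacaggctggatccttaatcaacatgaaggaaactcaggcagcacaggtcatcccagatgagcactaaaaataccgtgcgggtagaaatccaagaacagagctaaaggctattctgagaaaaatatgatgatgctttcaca
Sparc, intergenic, chr11:55246592-55246791: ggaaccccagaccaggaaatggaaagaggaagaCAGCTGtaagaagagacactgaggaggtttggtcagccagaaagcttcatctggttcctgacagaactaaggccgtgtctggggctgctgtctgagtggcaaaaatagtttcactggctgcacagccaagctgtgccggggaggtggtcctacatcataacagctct
None of the strings was found at Ube2e2. The capitals mark the TEAD string at Fars2, a SOX string at Slc1a2 and an E-box at Sparc. A match of letters is a description of the sequence and does not show that a factor was bound.

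The first question was how much of the H3K4me1 landscape differed between the stages and how strong the differing peaks were. The lost peaks made up 23.2% of the eA list (95% interval 23.0% to 23.4%) and the gained peaks 30.9% of the lA list (30.7% to 31.1%), so that 1.49 peaks were gained for each lost. These shares are the background for every count below. The excess of gained over lost peaks depended on the length of the lists: when the lA list was cut to the 181227 peaks with the highest −log10 q, 48770 peaks were lost (26.9%) and 49458 gained (27.3%), a ratio of 1.01. Counted in bases, 77.2 Mb were under a peak at both stages, 32.2 Mb at eA only and 38.8 Mb at lA only. Of the bases seen only at eA, 13.9 Mb were in lost peaks and 18.3 Mb within kept ones, and at lA the split was 22.5 Mb and 16.3 Mb.

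Lost and gained peaks were narrow and weak within their own lists. The median width was 272 bp for lost and 580 bp for kept eA peaks, and 294 bp for gained and 567 bp for kept lA peaks. The median −log10 q was 5.46 for lost against 11.7 for kept peaks of the eA list, and 5.85 for gained against 11.4 for kept peaks of the lA list. With each list cut into 4 equal parts by −log10 q, 46.9% of eA peaks were lost in the lowest part and 1.83% in the highest. The gained share of lA peaks went from 57.1% in the lowest part to 5.03% in the highest. There were 828 lost and 2559 gained peaks in those highest parts.

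**Figure D1:**
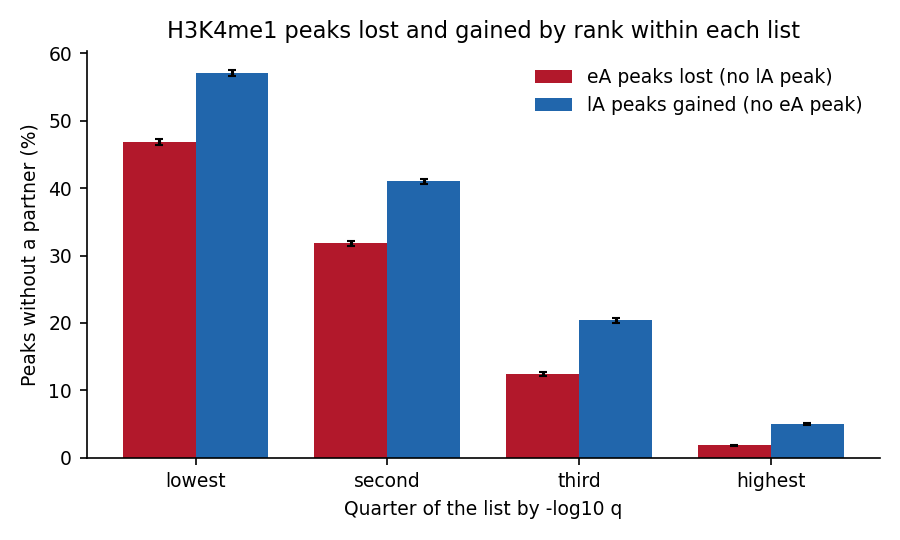
Share of eA peaks lost (red) and of lA peaks gained (blue) in each of 4 equal parts of the list by −log10 q, in percent, with 95% Wilson intervals as error bars. Both shares fall from the lowest to the highest part, from 46.9% to 1.83% for lost and from 57.1% to 5.03% for gained peaks.

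Many of the lost and gained peaks lay close to a peak of the other stage. The nearest lA peak was at most 1 kb away for 41.7% of lost peaks (41.3% to 42.2%) and more than 10 kb away for 14.2%. For gained peaks the nearest eA peak was within 1 kb for 32.6% (32.3% to 33.0%) and beyond 10 kb for 18.6%. The median distance was 1.67 kb for lost and 2.57 kb for gained peaks. Among kept peaks 109587 pairs joined exactly 1 eA to 1 lA peak. Their median width ratio of lA over eA was 0.98, with 8019 pairs at least 2 times wider and 6766 at least 2 times narrower in lA. The median pair shared 71.5% of its joint span, and in 77.7% of the pairs the summits were within 200 bp of each other.

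Gained peaks also formed longer runs along the chromosomes than lost ones. Counting neighbouring peaks of the lA list with no kept peak between them, 1255 runs had at least 5 gained peaks and 54 had at least 10. In the eA list 264 runs had at least 5 lost peaks and 4 had at least 10. The longest gained run had 18 peaks over 266 kb (chr9:6401694-6667465), with Ddi1 as the gene given to its peaks. A run of 15 gained peaks over 255 kb lay in Csmd1 (chr8:16903929-17158714). Among the longest lost runs, 10 peaks over 16.6 kb were given to Srebf1, the regulator of sterol and fatty acid synthesis genes (chr11:60006756-60023361). A lost run of 10 peaks near Ppp1r3a (chr6:14144832-14582719) lay within the span of a gained run of 15 (chr6:14083877-14584628), so that this region held long runs in both directions. These runs were not adjusted for the length of the lists.

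The second question was where in the genome the changes fell. Promoters held 3.58% of lost peaks (1507 peaks, 3.41% to 3.76%) and 2.25% of gained peaks (1412 peaks, 2.14% to 2.37%), against 6.69% of kept eA and 6.62% of kept lA peaks. Counting 1 kb around every annotated start site, the shares were 8.82% of lost and 5.19% of gained peaks, and with kept peaks taken as those within 1 kb of a partner the gained share was 1.39%. Introns held 48.6% of lost, 48.7% of gained and 48.4% of kept eA peaks. Exons held 4.20% of lost but 2.18% of gained peaks, and intergenic sequence 43.7% of lost and 46.8% of gained peaks. Seen from the classes, 13.9% of eA promoter peaks were lost and 13.2% of lA promoter peaks gained, with overlapping intervals, whereas 24.2% of intergenic eA peaks were lost and 33.7% of intergenic lA peaks gained. At 50 kb or more from any coding start site the gained share was 35.9% and the lost share 24.8%.

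The order of the shares turned over just downstream of start sites. From 0 to 500 bp downstream of a coding start site 766 of 4515 eA peaks were lost (17.0%) and 442 of 4036 lA peaks gained (11.0%), with intervals that did not overlap. From 500 to 1000 bp downstream the values were 13.4% lost and 9.55% gained. In the 500 bp upstream 770 of 5148 eA peaks were lost and 674 of 4926 lA peaks gained (13.7%), with overlapping intervals. From 1000 to 500 bp upstream the order was the reverse, with 11.9% lost and 14.5% gained, and between 2500 and 5000 bp on the downstream side 24.4% were lost and 32.3% gained.

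**Figure D2:**
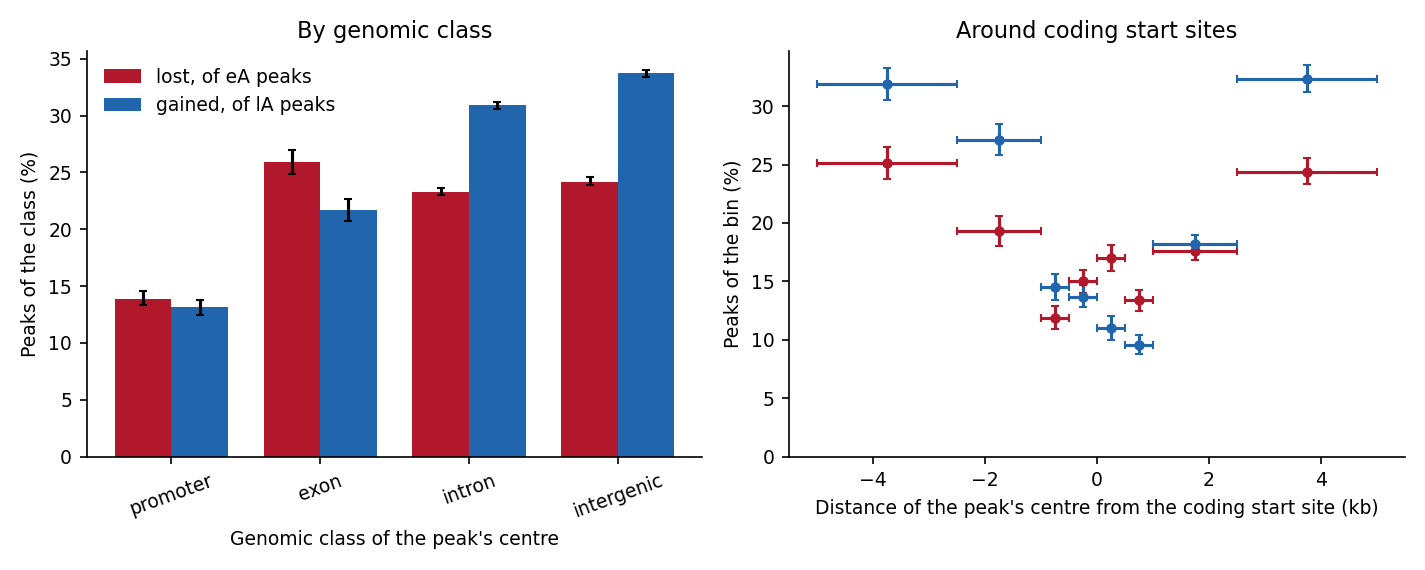
Left, share of the eA peaks of each genomic class that were lost (red) and of the lA peaks that were gained (blue), in percent; right, the same shares by distance of the peak's centre from the nearest coding start site in kb, with horizontal bars for the bins. Vertical bars are 95% Wilson intervals; both shares are lowest within 1 kb of start sites, and the gained share reaches 33.7% in intergenic sequence.

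Base composition moved with these differences. The median GC content of the 200 bp around the summit was 48.5% for lost peaks, 48.5% for kept peaks of either list and 46% for gained peaks, and 23.3% of gained windows held no CpG against 14.9% of lost windows. Among peaks with a GC content of 45% to 50%, intergenic sequence held 46.6% of lost and 47.0% of gained peaks, with overlapping intervals. Exons held 2.44% and 1.79% of these peaks and promoters 2.51% and 1.89%, with intervals that did not overlap. Of lA peaks with a GC content under 40%, 47.6% were gained, and of those with 60% or more, 9.13%. The lost share changed less, from 27.5% to 20.9%. With lists of equal length the gained share still went from 42.7% to 7.57%. Among peaks with a −log10 q from 5 to 10 in their own list the gradients ran in opposite directions: the lost share was 29.1% under 40% GC and 40.8% at 60% or more, while the gained share fell from 50.7% to 17.1%. A gained share that fell with GC content was also seen in H3K27ac from eA to lA, from 42.9% to 4.53%, and in H3K4me1 from aNPC to eA, from 39.3% to 13.8%. In both of those steps the lost share fell with GC content too, to 18.2% and 11.4% of peaks with 60% or more. With 1 list per stage, a difference between stages and one between libraries in the recovery of GC-rich fragments cannot be told apart.

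**Figure D3:**
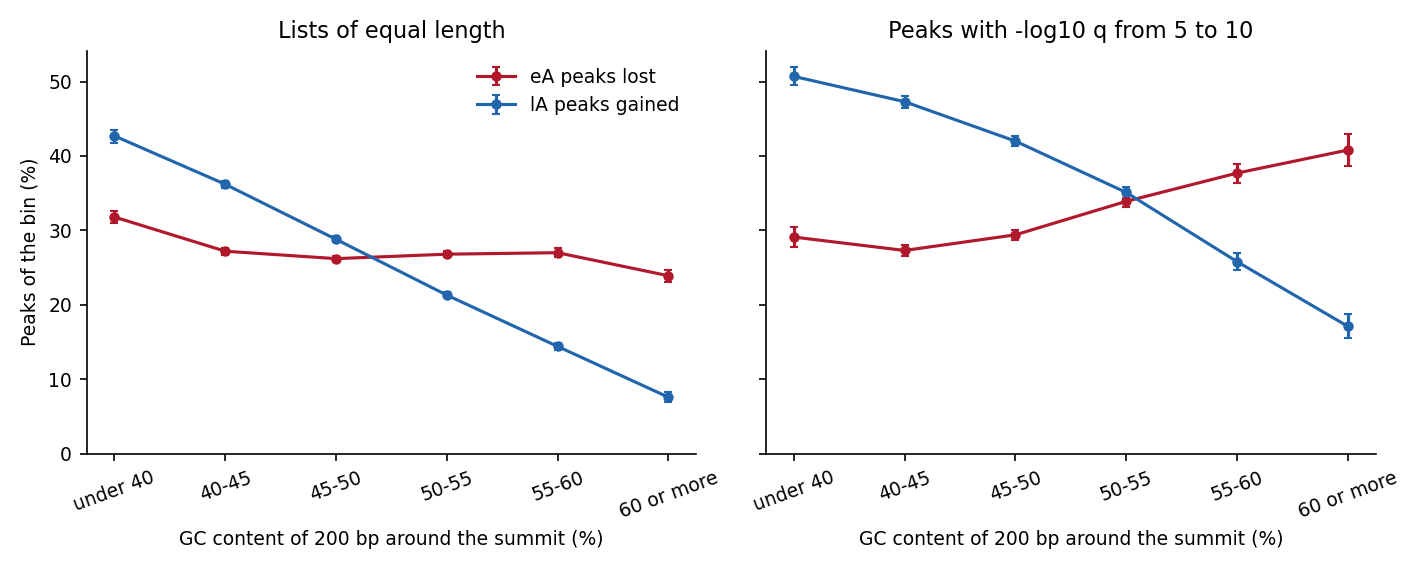
Share of eA peaks lost (red) and of lA peaks gained (blue) by GC content of the 200 bp around the summit, in percent with 95% Wilson intervals, for lists of equal length (left) and for peaks with a −log10 q from 5 to 10 in their own list (right). The gained share falls with GC content in both panels, to 7.57% and 17.1%, and the lost share rises in the right panel to 40.8%.

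The TEAD and E-box strings differed most between lost and gained windows among the 11 strings, and both differences were present within a narrow range of GC content. The TEAD string GGAATG, on either strand, was found in 18.4% of gained windows (18.1% to 18.7%), 13.4% of kept lA windows, 13.6% of kept eA windows and 11.2% of lost windows (10.9% to 11.5%). Among windows with a GC content of 45% to 50% the shares were 19.2% of gained and 11.5% of lost. The E-box CAGCTG went the other way, with 17.4% of lost, 14.8% of kept eA, 15.1% of kept lA and 11.1% of gained windows, and with 16.1% of lost and 11.6% of gained windows within that GC range. The AP-1 string was in 9.13% of lost, 7.24% of kept eA, 7.92% of kept lA and 7.86% of gained windows, and the NFI string in 17.3% of lost and 15.2% of gained windows. The STAT string TTCCNGGAA was rare, in 0.786% of lost (0.706% to 0.875%) and 0.952% of gained windows (0.879% to 1.03%). The RUNX string was in 14.9% of lost and 15.3% of gained windows the ETS string GGAAGT in 13.5% and 13.3%, the SOX string in 12.8% and 12.9%, the homeobox string TAATTA in 4.01% and 4.26%, the POU string in 3.02% and 2.97% and the forkhead string GTAAACA in 2.91% and 3.12%. In the H3K27ac lists of the same stages the TEAD string was in 12.2% of gained and 10.9% of lost windows and the E-box in 11.9% and 13.2%. The earlier H3K4me1 step from aNPC to eA had the same order, with the TEAD string in 14.6% of gained and 11.3% of lost windows and the E-box in 13.1% and 17.8%. The AP-1 string had the opposite order there, with 10.9% of gained and 5.84% of lost windows, and was in 6.61% of gained and 6.39% of lost H3K27ac windows from eA to lA.

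The third question was whether the lost and gained H3K4me1 peaks carried H3K27ac, a readout that did not enter their definition. Among lost peaks 11.6% overlapped an eA H3K27ac peak (11.3% to 11.9%), and among gained peaks 9.34% overlapped an lA H3K27ac peak (9.11% to 9.57%). For kept peaks these shares were 43.4% in eA and 44.7% in lA. The gap to kept peaks remained when peaks of like strength were compared over the same 200 bp window, but its size depended on strength. At a −log10 q from 10 to 20, 16.4% of lost and 40.5% of kept eA windows had H3K27ac in eA. In that range 13.4% of gained and 41.4% of kept lA windows had it in lA. Below a −log10 q of 5, where 19338 of the 42105 lost peaks lay, the gap in percentage points was smaller. There 7.47% of lost and 11.7% of kept eA windows had H3K27ac in eA. For lA the shares were 5.98% of gained and 18.0% of kept windows. Within the gained peaks the share with lA H3K27ac was 6.17% in the weakest of 4 equal parts and 14.7% in the strongest, and within the lost peaks the share with eA H3K27ac was 6.79% and 18.2%.

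Most peaks that changed in H3K4me1 had no H3K27ac at either stage, 84.6% of lost and 89.1% of gained peaks, against 46.3% of kept eA and 46.4% of kept lA peaks. Of the lost peaks 7.03% had H3K27ac at both stages, 4.52% in eA only and 3.88% in lA only. Of the gained peaks 2.44% had it at both stages, 1.54% in eA only and 6.90% in lA only. Among lost promoter peaks 34.8% had H3K27ac at both stages, against 57.0% of kept eA promoter peaks, and 52.1% had it at neither, and among lost distal peaks 85.8% had it at neither. Seen from H3K27ac, 13.1% of the 30757 H3K27ac peaks gained from eA to lA overlapped a gained H3K4me1 peak, 67.0% overlapped a kept one and 4.49% a lost one. Of the 22841 H3K27ac peaks lost, 7.57% overlapped a lost, 73.2% a kept and 3.72% a gained H3K4me1 peak.

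The progenitor list gave the lost and gained peaks a different past. In aNPC 52.9% of lost peaks overlapped an H3K4me1 peak (52.4% to 53.4%), and 9.59% of gained peaks did (9.36% to 9.82%), against 75.1% of kept eA and 76.0% of kept lA peaks. H3K27ac was present in aNPC at 16.9% of lost and 3.72% of gained peaks, and at 10.9% of lost peaks in lA. Since a gained peak lies where eA had no peak, and 16.7% of aNPC peaks had no partner in eA, the rule in part sets the low share of gained peaks. At a −log10 q of 5 or more in both lists the shares with aNPC H3K4me1 were 65.3% of lost and 16.5% of gained peaks, and gained peaks had 15.5% when the summit decided. The 6018 gained peaks with H3K4me1 in aNPC are sites listed before and after eA but not in it.

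**Figure D4:**
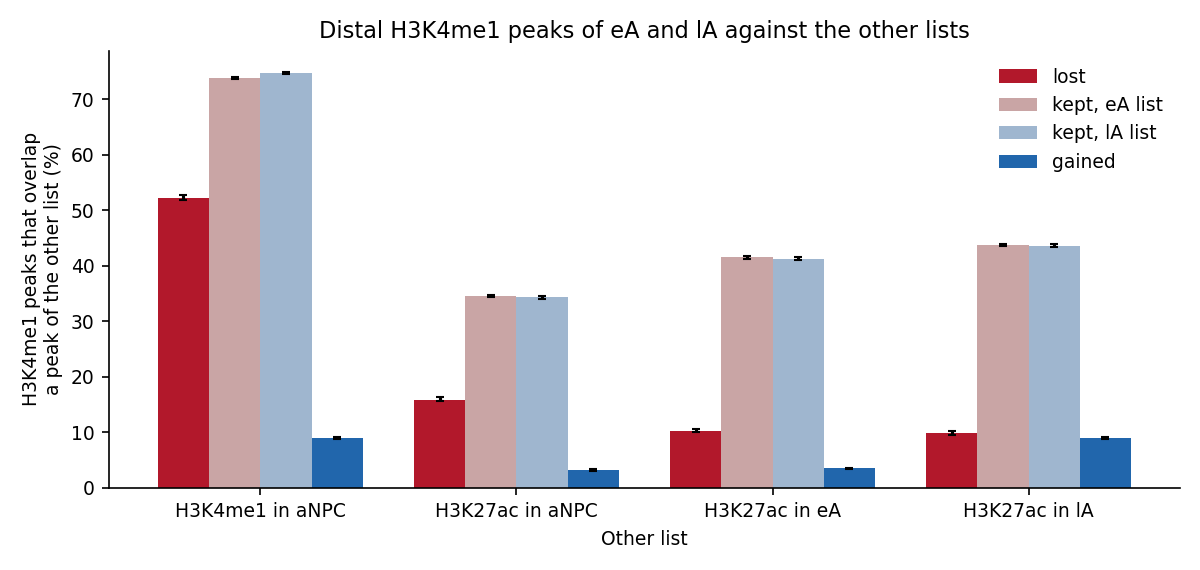
Share of distal H3K4me1 peaks (outside promoters) that overlap a peak of 4 other lists, in percent with 95% Wilson intervals, for lost, kept and gained peaks. Lost peaks overlap aNPC H3K4me1 at 52.3% and gained peaks at 8.98%, and both overlap H3K27ac of every stage less often than kept peaks do.

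For comparison, the step from aNPC to eA lost 16.7% of the aNPC H3K4me1 peaks and gained 54431 of the 181227 eA peaks, and H3K27ac from eA to lA lost 28.1% and gained 34.0%. H3K4me1 from eA to lA thus had a larger lost share than the step before it and smaller shares than H3K27ac over the same step. The depth of each list is unknown and these differences were not tested.

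The last question was which genes the changes lay at. Each peak in a promoter, exon or intron went to the gene with the closest coding start, and so did intergenic peaks under 50 kb from one. The closest start need not be that of the gene around the peak: 58.5% of lost and 60.2% of gained peaks with a gene lay inside that gene, and 13.1% and 11.6% lay in an exon or intron of another. Of peaks given to a gene 22.7% were lost and 29.2% gained. At least 1 lost peak was given to 11048 genes and at least 1 gained peak to 11441, and 8119 genes had both. More gained than lost peaks were found at 7329 genes and more lost than gained at 5258.

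The genes with the largest balance of gained over lost peaks were long. Csmd1, which encodes a complement regulatory membrane protein of the brain, spans 1643 kb (chr8:15892537-17535586) and had 12 lost, 37 kept in eA, 38 kept in lA and 85 gained peaks. Gained peaks thus made up 69.1% of its lA peaks. Rbms3, an RNA-binding protein gene of 1057 kb, had 17 lost and 82 gained peaks. The receptor phosphatase gene Ptprg had 20 lost and 79 gained, Fhit 12 and 71, the glypican gene Gpc6 12 and 61, and the nuclear receptor gene Rora 18 and 63. The catenin genes Ctnnd2 and Ctnna2 had 12 and 53, and 6 and 43. Ube2e2, a ubiquitin-conjugating enzyme gene of 321 kb, had 4 lost and 42 gained peaks, 67.7% of its lA peaks. With lists of equal length each of these genes had more gained than lost peaks, by 22 (Ctnna2) to 59 (Csmd1). They had been chosen for this balance in the same lists.

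Among the genes with the largest balance of lost peaks, Camta1, a calmodulin-binding transcription factor gene, had 36 lost and 15 gained peaks, and Mad1l1, of the mitotic spindle checkpoint, had 30 and 9. Gse1 is shorter (92.5 kb, chr8:123012766-123105290) and had 25 lost and 4 gained peaks, with 37.3% of its eA peaks lost, and 21 of the 25 lay outside it in the overlapping gene model Gm20388. The neuronal RNA-binding protein gene Celf4 had 18 lost and 1 gained, the adhesion molecule gene Dscaml1 18 and 3, and Nfatc2, which encodes a calcium-regulated transcription factor, 16 and 1. Apba2, Dpyd and Rap1gap2 had 22, 20 and 17 lost against 8, 6 and 3 gained peaks. Smoc1, which encodes a secreted calcium-binding matrix protein, lost 52.6% of its eA peaks (20 lost, 7 gained). With lists of equal length the balance of these 10 genes was between 15 (Smoc1) and 27 (Mad1l1) more lost than gained peaks. Cutting the lA list can only add lost peaks and remove gained ones, so this direction could not have turned.

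Over all genes the gained share was highest in long genes. It was 26.4% in genes of up to 10 kb, 25.3% from 10 to 30 kb, 28.1% from 30 to 100 kb, 31.4% from 100 to 300 kb and 36.0% above, while the lost share lay between 22.2% and 23.4%. With lists of equal length there were 0.86, 0.81, 0.92, 1.02 and 1.26 gained peaks for each lost one in these classes, so the direction of the balance in short genes depended on the length of the lists. Gene length and GC content were not separated.

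A total of 411 genes had a peak at lA and none at eA, and 368 had the reverse. Among the former were Slc7a13, an amino acid transporter gene with 7 gained peaks, Il15, a cytokine gene with 5, and Nkx2-1, a transcription factor gene of the ventral forebrain with 5. Among the latter were Prr22 with 5 lost peaks, all inside its neighbour Rfx2, Cel, a bile salt-dependent lipase gene, with 4 and Mpzl3 with 4.

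The strongest lost peak of the genome was a 1069 bp peak at chr16:91190381-91191449, with an enrichment of 6.39-fold and a −log10 q of 66.8 in the eA list. It was given to Gm9881, and its summit was 34.6 kb from a start site of Olig2 and 78.8 kb from Olig1, the transcription factor genes that direct the oligodendrocyte lineage. It had H3K4me1 and H3K27ac in aNPC and H3K27ac in eA, and no H3K27ac peak in lA. The next strongest were given to Ythdf1 (−log10 q of 45.2), Olfr70 (44.0, inside Tmem8b), Myh7b (44.0, inside Trpc4ap) and Mafa (42.0, inside Zc3h3). At Mafa and at Shank3, a scaffold gene of excitatory synapses (36.5), and Slc25a18, a mitochondrial glutamate carrier gene (36.1, inside Atp6v1e1), H3K27ac was present in eA and absent from the lA list. Of the 10 strongest lost peaks 5 had H3K27ac in eA only, 2 (Myh7b and Adcy1) at both stages and 3 (Ythdf1, Olfr70 and Wdr67) at neither, and 9 had H3K4me1 in aNPC, the exception being that at Vps41. Over all lost peaks the shares were 4.52% in eA only, 7.03% at both stages, 84.6% at neither and 52.9% with H3K4me1 in aNPC.

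Of the 10 strongest gained peaks none had H3K4me1 in aNPC, which is near the 9.59% of all gained peaks. The highest −log10 q, 147, belonged to a 325 bp peak in Sfi1 (chr11:3047494-3047818) that had H3K27ac at all 3 stages and an enrichment of 3.40-fold, lower than the 7.73-fold to 11.53-fold of the other 9. The next was a 1211 bp peak in an intron of Ube2e2 (chr14:19489724-19490934, −log10 q of 50.1), which had H3K27ac in lA only. H3K27ac in lA only was also found at the gained peaks of Cnksr3 (44.1) and Pla1a (41.7), and no H3K27ac at those of Fars2 (48.1), Tnnc1 (43.8, inside Nisch) and Mark1 (41.0). The 50 bases at the summit of each of these 20 peaks occurred at 1 place on chromosomes 1 to 19. Exact matches in the reference cannot show copies that differ or that the reference lacks, and no regions of high background were filtered out.

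Across 14 gene lists, most did not differ from all genes by more than counting error. Each list has a lost and a gained share, 28 in all, and the intervals are not adjusted for that number. For the 18 astrocyte markers 59 of 233 eA peaks were lost (25.3%, 20.2% to 31.3%, against 22.7% for all genes) and 58 of 233 lA peaks gained (24.9%, 19.8% to 30.8%, against 29.2%). With all peaks within 10 kb of the genes their gained share was 21.9% (16.9% to 27.9%), below the 29.0% of all genes. More gained than lost peaks were found at 8 of them and more lost than gained at 6, against 7329 and 5258 of all 17634 genes with a peak. For 18 glial transcription factors 23.9% were lost and 27.7% gained, and for 14 neural progenitor genes 21.7% and 26.4%.

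Among the astrocyte markers, the water channel gene Aqp4 had 7 lost and 12 gained peaks, of which 8 gained ones lay in introns of its neighbour Chst9 and none in Aqp4 itself, and the glutamate transporter gene Slc1a3 6 and 8. Slc1a2, the other glial glutamate transporter gene, had 13 lost and 12 gained. Its strongest gained peak (chr2:102668559-102669300, −log10 q of 23.9) was 67.6 kb from the start site and inside Cd44, the gene of a hyaluronan receptor that is also in the list, and it had H3K27ac in lA and not in eA. Of the 12 gained peaks 3 lay inside Slc1a2 itself. The connexin gene Gjb6 lost 6 of 8 eA peaks, at the promoter among others, and gained none, and none of the 6 lost peaks had H3K27ac at any stage. Gja1, another connexin gene, lost 6 of 10 peaks and gained 4. Of its lost peaks 4 lay within 2.5 kb downstream of the start site and overlapped H3K27ac at all 3 stages. Sparcl1 lost 5 of 11 peaks and gained 1, and Aldh1l1 lost 1 of 23 and gained 3.

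Among the glial transcription factors, the NFI genes had many peaks. Nfia had 18 lost and 35 gained peaks, Nfib 19 and 23, Nfix 8 and 5, and Nfic 3 and 1. A promoter peak was lost at Nfib, Nfic and Nfix. Stat3, the effector of LIF, lost none of its 8 eA peaks and gained 3 weak ones with a −log10 q of 2.69 to 4.02. Atf3, an AP-1 related factor gene, had 3 lost peaks, at its promoter among others (chr1:193007520-193007891, −log10 q of 11.4), and 6 gained. The RUNX genes differed: Runx3 lost 9 of 12 eA peaks and gained 3, Runx1 had 12 lost and 9 gained, and the 2 annotation entries of Runx2 together had 18 lost and 30 gained, of which 8 and 11 lay in Supt3h.

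Of the 14 progenitor genes 9 had more gained than lost peaks and 5 the reverse, against 7329 and 5258 of all 17634 genes with a peak, and both shares of the list spanned those of all genes. Nes, the progenitor intermediate filament gene, lost 5 of 11 eA peaks and gained none, with enrichments of the lost peaks between 1.48-fold and 2.07-fold. Vim, a filament gene shared by progenitors and astrocytes, lost none and gained 4. The Notch pathway genes Dll1, Notch1 and Hes1 had 6, 6 and 4 lost peaks against 2, 3 and 2 gained, while Gli3, of the Hedgehog pathway, had 5 lost and 18 gained. For 16 proneural and neuronal transcription factors 29.4% of peaks were lost (22.4% to 37.6%) and 19.8% gained (13.8% to 27.7%). The gained share was below that of all genes by more than counting error with the lists as deposited, and under 2 of 3 alternatives. Insm1, a factor of neuronal and neuroendocrine progenitors, had 10 lost peaks of 25 and 1 gained, all in introns of Ralgapa2 at 25057 bp or more from its start site. Neurod6 had 5 lost and 1 gained, Neurod4 4 lost and none gained, and Neurod2 3 lost and none gained. Promoter peaks were lost at Neurod4 and Neurod6, without H3K27ac at any stage, and at Lhx2, where the lost peak had H3K27ac in eA and not in lA. Neurod1 went the other way, with none lost and 3 gained, as did Dlx5 with none and 2, Tbr1 with 1 and 3 and Pou3f3 with 3 and 4. Of the 16 genes 7 had more lost than gained peaks, 5 the reverse and 4 as many of each. Over all 17634 genes with a peak these numbers were 5258, 7329 and 5047.

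The oligodendrocyte lineage genes gained 15 of 96 lA peaks (15.6%, 9.70% to 24.2%), below the 29.2% of all genes, and their gained share was also below that of all genes by more than counting error under each of 3 alternatives. Olig1 lost 5 of 19 peaks and gained none, Sox10 had 5 lost and 3 gained, and Olig2 1 lost and 2 gained. For 25 gp130 and cytokine response genes the gained share was also low, 72 of 305 peaks (23.6%, 19.2% to 28.7%), and below that of all genes under each of 3 alternatives. The members differed: Cp, which encodes ceruloplasmin, lost none of 5 eA peaks and gained 9, Vcam1 had 2 lost and 6 gained, Jak1 8 and 3, Nfkb1 11 and 6, and Serpina3n 6 and 2.

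Extracellular matrix and adhesion genes had 86 lost and 126 gained peaks, and the intervals of their lost share of 24.0% (19.9% to 28.7%) and gained share of 31.4% (27.1% to 36.1%) spanned those of all genes. Itgb1, the β1 integrin gene, gained 14 peaks, 63.6% of its lA peaks, and lost 3, and none of the 14 overlapped H3K27ac at any stage. Tnc, the tenascin gene, had 6 lost and 11 gained, Thbs1 5 and 10, and the collagen gene Col4a2 14 and 7, of which 11 and 6 lay in its neighbour Col4a1. TGF-beta and BMP pathway genes had 85 lost and 148 gained peaks, with lost and gained shares (19.6% and 28.7%) whose intervals spanned those of all genes. With lists of equal length their lost share was 21.5% (17.9% to 25.6%), below the 26.4% of all genes. The receptor genes Bmpr1b and Bmpr2 had 13 lost and 24 gained, and 3 and 9, the signal transducers Smad2 and Smad4 each had none lost and 6 gained, and the ligand gene Tgfb3 had 8 and 5, of which 4 and 5 lay in Ttll5.

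**Figure D5:**
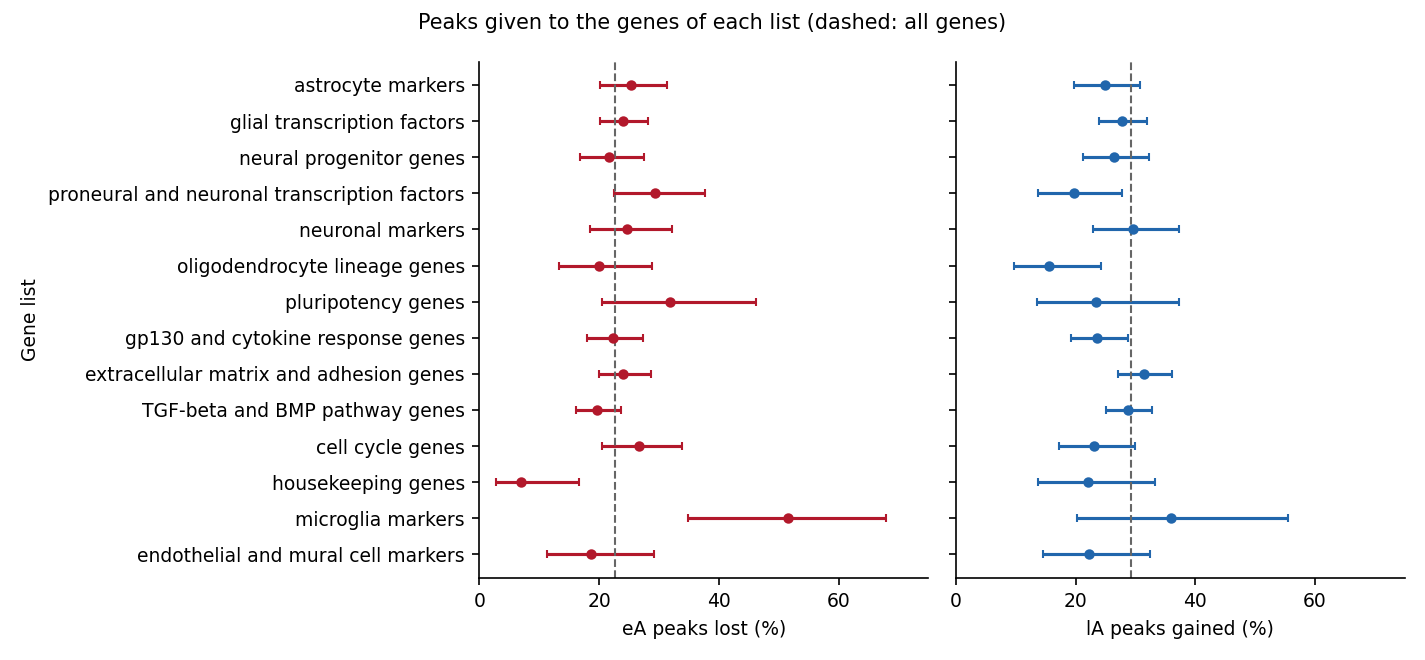
Share of the eA peaks given to the genes of each list that were lost (left) and of the lA peaks that were gained (right), in percent with 95% Wilson intervals; dashed lines mark all genes, at 22.7% and 29.2%. Intervals clear of the line are those of housekeeping genes and microglia markers for lost peaks, and of proneural factors, oligodendrocyte lineage genes and cytokine response genes for gained peaks.

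Housekeeping genes lost 4 of 57 eA peaks (7.02%, 2.76% to 16.7%) and gained 15 of 68 lA peaks (22.1%, 13.8% to 33.3%). Their gained share was below that of all genes by more than counting error under each of 3 alternatives, at 13.2% to 15.5%. Markers of microglia, which should be absent from these cultures, lost 16 of 31 eA peaks (51.6%, 34.8% to 68.0%), of which 9 were at Ptprc and 3 at Tmem119. The lost shares of housekeeping genes and of microglia markers were clear of that of all genes under 2 of 3 alternatives. Cell cycle genes lost 26.6% and gained 23.0%, with intervals that spanned the shares of all genes. The inhibitor gene Cdkn1a lost 6 of 10 peaks and gained 2, and the cyclin gene Ccnd1 lost 1 of 10 and gained 5. The lists of pluripotency genes (31.9% lost, 23.4% gained), neuronal markers (24.7% and 29.6%) and endothelial and mural cell markers (18.6% and 22.2%) spanned the values of all genes in both directions.

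The amplicons of the study's ChIP-qPCR primers were placed on mm9, and 50 distinct pairs each matched 1 place on chromosomes 1 to 19. Of these 34 overlapped a kept H3K4me1 peak, 3 a lost peak, 2 a gained peak and 11 no peak. The lost ones were at Podn, at Cchcr1 and, 586 bp downstream of its start site, at Gja1 (chr10:56097662-56097721), where the amplicon overlapped H3K27ac in eA and in lA. The lost Gja1 peak (chr10:56097715-56098003) reached only the end of the amplicon, and most of the amplicon lay outside it. The Cchcr1 peak was the strongest of the 3 lost ones (chr17:35660842-35661830, 6.39-fold, −log10 q of 23.7). The gained ones, at Nfasc and Lrrc4, overlapped peaks with a −log10 q of 4.96 and 4.02, and these amplicons overlapped H3K27ac in eA and not in lA. The amplicons at Cchcr1 and Nfasc also reached past the edge of their peaks. Both amplicons at Gfap, near the promoter and upstream, overlapped kept peaks.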

How the data were processed

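H3K4me1 and H3K27ac were measured by ChIP-seq in aNPC, eA and lA. Reads had been aligned uniquely to mm9 with Bowtie by the authors, who merged the alignments of 2 replicates per stage and mark with SAMtools v0.1.19 and called peaks with MACS2 at default settings without input. In the deposited lists the fold enrichment is a ratio over the local background of the same reads, and the −log10 of the q-value is as the authors' caller gave it; the start, end and summit are other deposited columns. Neither value was compared between lists peak by peak, because the depth is unknown. Some settings put the same limits of −log10 q on both lists, and these limits need not mean the same in each. Peaks of chromosomes 1 to 19 were used. Overlaps, classes and nearest genes (GENCODE M1, NCBIM37, which is mm9, 45962 coding start sites with those of X and Y) were computed in Python 3 with NumPy and pandas, and were tested on simulated lists. Class and gene refer to the peak's centre. Windows were 200 bp around the summit. Gene lists, motifs and the lost, kept and gained groups were chosen with earlier results of these data known. Genes named are those of each list with the largest balance of gained or lost peaks, the 10 genes with the largest balance in each direction, those of the 10 strongest lost and gained peaks, and those of the ChIP-qPCR amplicons; others named were chosen after their values were seen, and some genes that the rule selects are not reported here. Sox1, Map2 and Tfcp2l1 matched no coding gene of the annotation. Alternatives were a −log10 q of 5 or more, lists of equal length, other definitions of a kept peak, the X and Y chromosomes, another promoter width, stronger H3K27ac peaks and, for gene lists, all peaks within 10 kb of the gene. RNA-seq was not used here.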

Additional observations from a re-analysis of the deposited data

Results flagged for a closer look

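The X chromosome was left out of the comparison and had its own signal. Of its 4214 eA peaks 1240 were lost (29.4%, 28.1% to 30.8%) and of its 4924 lA peaks 1954 were gained (39.7%, 38.3% to 41.1%), both above the 23.2% and 30.9% of chromosomes 1 to 19. Single autosomes lay between 22.3% and 24.0% for lost and between 27.5% and 33.9% for gained peaks. On the Y chromosome 11 of 37 eA peaks were lost and 4 of 32 lA peaks gained.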

How the results depend on the processing

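No paired analysis was possible because the 2 replicates of each stage were merged before peaks were called, and for the same reason no replicate could be left out. Counting a peak as kept when a partner lay within 1 kb gave 24534 lost peaks in place of 42105. The promoter share of lost peaks (3.58%) became 4.30% at a −log10 q of 5 or more, 2.52% within 1 kb and 8.82% with every annotated start site, and that of gained peaks (2.25%) became 2.82%, 1.39% and 5.19%, with 2.55% when the summit had to lie in the other peak and 2.52% when 50% of the length had to be covered. The share of lost peaks with eA H3K27ac (11.6%) was 16.8% at a −log10 q of 5 or more, 12.2% with lists of equal length, 14.8% by summit, 15.4% by length covered, 5.39% within 1 kb, 9.45% with stronger H3K27ac peaks and 10.6% over the 200 bp window, an alternative chosen after seeing the data. For gained peaks with lA H3K27ac (9.34%) the same settings gave 13.6%, 10.1%, 12.2%, 12.6%, 5.85%, 6.56% and 8.17%. The cause of these changes was not tested. Of 109 alternatives of other shares, over all peaks, all genes and the gene lists, 77 stayed inside the counting interval of the value reported and 32 did not. For the 84 of these that concern the gene lists the counts were 74 and 10. Unknown depth limits every comparison of counts between the stages.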
